A study of Mus musculus with 3 samples.

Results

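The 10 genes described here, Aqp4, Gfap, Slc1a2, Slc1a3, Aldh1l1, S100b, Mlc1, Hepacam, Fgfr3 and Aldoc, are widely used to recognise astrocytes. They were measured in RNA from isolated brain vessels, to which parts of astrocytes may stay attached. They were chosen by symbol, and each is represented by 1 of its transcript rows, the one holding most counts, so that 10 of the 29917 named genes in the files are members. PolyA RNA gave 3 libraries, and every library pooled vessels of 3 male mice at 3 months of age. The C57BL6 WT library came from wild-type mice of the C57BL6 strain, and the C57BL6-BALB/c WT library from wild-type mice of mixed C57BL6-BALB/c background. The Cx30-deleted library came from mice that lack Cx30 (Gjb6), an astrocyte gap junction protein, in every cell of the body. Its background is C57BL6 in the sample labels and mixed C57BL6/Balbc in the methods of the study, so that it cannot be said which WT library matches it. Each group is 1 library, and a difference between libraries can therefore be set against counting error but not against a spread between mice or preparations.

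Astrocytes wrap brain vessels with thin processes called endfeet, which cover nearly the whole outer surface of the capillaries. The endfoot membrane holds the water channel Aqp4 and the Mlc1 and Hepacam proteins, while glutamate released by neurons is taken up through the transporters Slc1a2 (GLT-1) and Slc1a3 (GLAST). Gfap forms the intermediate filaments of larger processes, Aldh1l1 and Aldoc are metabolic enzymes, S100b is a calcium-binding protein and Fgfr3 is a growth factor receptor. When vessels are isolated, endfeet and the RNA inside them can remain on the vessel wall.

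The deleted gene was low in the library labelled Cx30-deleted, where Gjb6 had 101 normalized counts against 2531 in C57BL6 WT and 2426 in C57BL6-BALB/c WT, a log2 ratio of -4.65 and -4.59. Normalized counts are raw counts divided by a size factor per library. The deposited counts summed to 60725557 in C57BL6 WT, 53484865 in C57BL6-BALB/c WT and 50375426 in Cx30-deleted vessels, and the size factors were 1.15, 0.926 and 0.953. Genes that mark endothelial cells stood high in these vessel libraries, with the median of 12 at 3480, 2103 and 4240 normalized counts per kilobase of transcript in C57BL6 WT, C57BL6-BALB/c WT and Cx30-deleted vessels. Every listed marker of endothelial, mural, neuronal, oligodendrocyte, microglial, choroid plexus, blood or fibroblast cells had counts in at least 1 of the 3 libraries.

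All 10 astrocyte genes were detected in the 3 vessel libraries, and with counts scaled on all genes their levels lay close. The highest library of a gene exceeded the lowest by 1.12-fold to 1.45-fold, with a median of 1.31-fold, where the median over all 14979 genes with at least 50 normalized counts in a library was 1.35-fold. None of the 10 differed by 2-fold or more between Cx30-deleted and C57BL6 WT vessels, where 2.68% of the genes tested did. None did so between Cx30-deleted and C57BL6-BALB/c WT vessels, where 8.69% of the genes tested did, or between the WT libraries, where 3.43% did. With libraries scaled on endothelial genes, 4 of the 10 passed 2-fold in the second of these comparisons, where 41.8% of all genes did, and 1 between the WT libraries, where 20.2% did. In bulk RNA, fewer attached endfeet and less RNA per endfoot cannot be told apart.

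Per kilobase of transcript, which allows levels of different genes to be compared, Gfap was the highest of the 10 in each library when each gene is taken by its row with most counts. It had 2040 normalized counts per kilobase in C57BL6 WT, 2013 in C57BL6-BALB/c WT and 1707 in Cx30-deleted vessels, which placed it above 97.3%, 97.2% and 96.4% of the 14979 genes. Slc1a2 followed in the WT libraries and in Cx30-deleted vessels, with 1894, 1943 and 1417 normalized counts per kilobase. Aldh1l1 was the lowest in each library, at 175, 121 and 150. The order at the top depends on the row, since the shorter coding row Aldoc-202 had 2538, 1822 and 2077 normalized counts per kilobase and Slc1a2-203 had 693, 793 and 710. The median of the 10 genes was 994, 796 and 988 normalized counts per kilobase, above the median of 40 other astrocyte genes (554, 476 and 501). The median was 975, 796 and 706 for 10 oligodendrocyte markers and 623, 855 and 463 for 10 neuronal markers. The study saw few Gfap-positive fibres on its isolated vessels and no astrocyte cell bodies. Whether the astrocyte RNA came from endfeet or from other brain tissue in the preparation was not tested. The plot of levels per kilobase shows Aqp4 and Aldh1l1 set below the other 8 genes in every library.

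**Figure D1:**
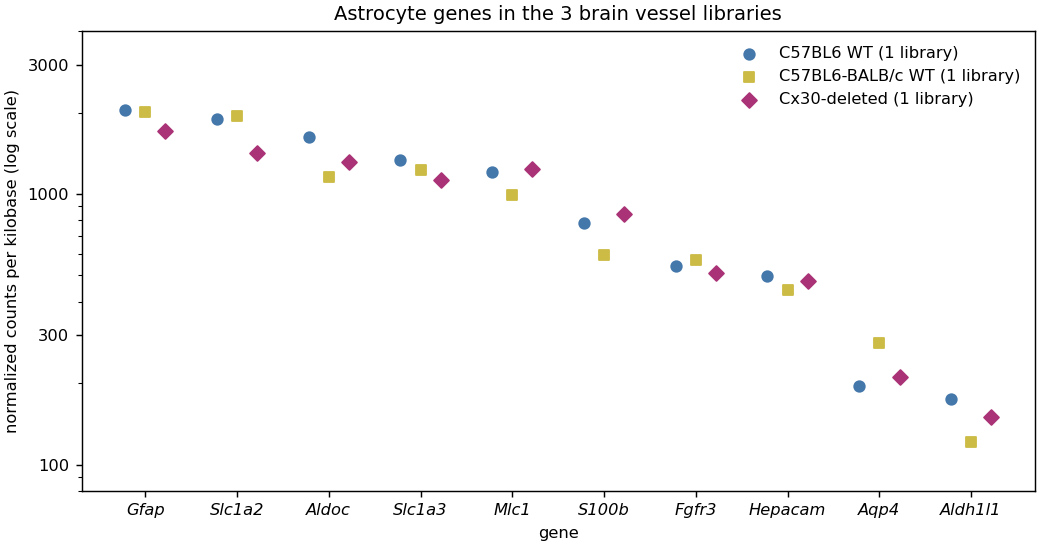
Normalized counts per kilobase of transcript (vertical axis, log scale) of the 10 astrocyte genes (horizontal axis, ordered by their level in C57BL6 WT), with 1 point for each library. There are no error bars because each group is 1 library. The points of a gene lie close to each other beside the distance between Gfap, with 2040 in C57BL6 WT, and Aldh1l1, with 175.

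Directions differed between the comparisons. Against C57BL6 WT, 7 of the 10 genes were lower and 3 higher in Cx30-deleted vessels, with a median log2 ratio of -0.16 and a range from -0.42 to 0.11. Over all genes tested, 50.7% were lower and 85.3% lay within 0.5 of 0 on the log2 scale. The 95% counting interval of the ratio lay below 0 for 6 genes, above 0 for 0 genes and held 0 for 4, while over all genes tested 28.3% lay below 0 and 25.7% above. Against C57BL6-BALB/c WT, 5 genes were lower and 5 higher, with a median of -0.01 and a range from -0.46 to 0.51. Here 5 intervals lay below 0, 4 above 0 and 1 held 0. Over all genes tested 49.7% were lower, and 36.2% of intervals lay below and 35.6% above 0. These directions hold for counts scaled on all genes. Scaling on the 12 endothelial genes instead shifts every gene by -0.22 against C57BL6 WT and -0.88 against C57BL6-BALB/c WT. It placed all 10 astrocyte genes, and 77.5% of all genes, lower in Cx30-deleted vessels than in both WT libraries.

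Ratios between the WT libraries spanned a range as wide as those of Cx30-deleted vessels. In C57BL6-BALB/c WT, 7 of the 10 genes were lower and 3 higher than in C57BL6 WT, with log2 ratios from -0.54 (Aldh1l1) to 0.53 (Aqp4) and a median of -0.15. Of the intervals, 6 lay below 0, 2 above 0 and 2 held 0. Over all genes tested 49.98% were lower, and 31.2% of intervals lay below and 33.2% above 0. Cx30-deleted vessels had the lowest of the 3 values for 4 genes, Gfap, Slc1a2, Slc1a3 and Fgfr3, a position taken by 36.9% of all genes. They had the highest value for 2 genes, S100b and Mlc1, a position taken by 36.4% of all genes. The other 4, Aqp4, Aldh1l1, Hepacam and Aldoc, lay between the WT libraries.

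**Figure D2:**
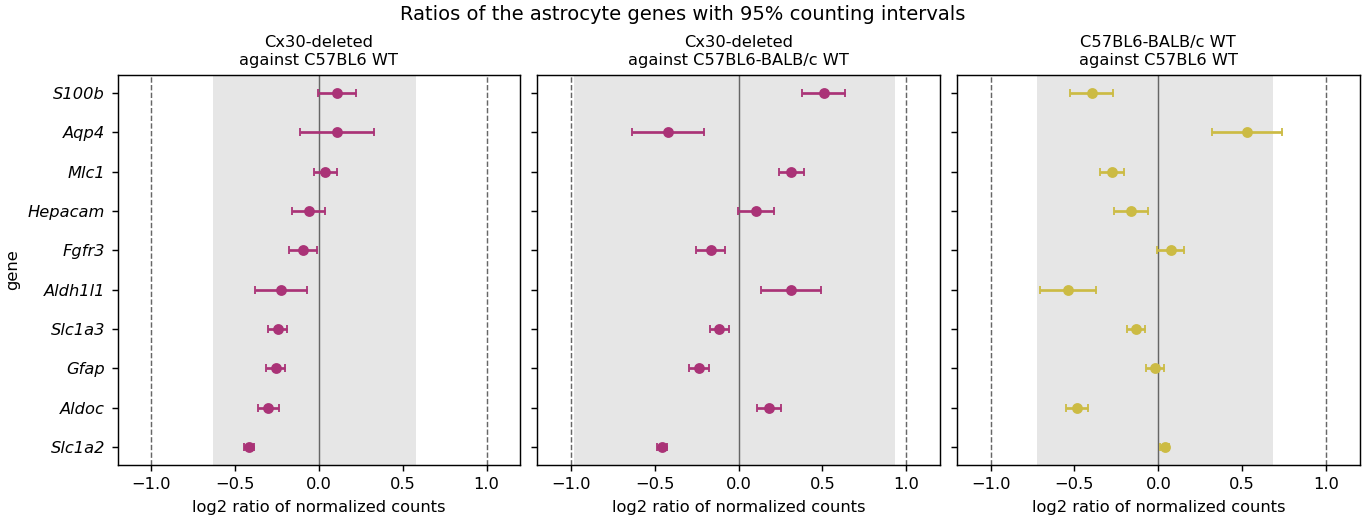
Log2 ratio of normalized counts (horizontal axis) of each astrocyte gene (vertical axis) in the 3 comparisons, 1 library against 1 library. Bars are 95% exact binomial intervals that cover counting error only, dashed lines mark 2-fold, and the grey band holds 90% of all genes tested. No gene reaches a dashed line, and Slc1a2 has the lowest ratio against C57BL6 WT (-0.42) and against C57BL6-BALB/c WT (-0.46).

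The only test across genes that these libraries allow takes both WT libraries as 1 group. In this edgeR quasi-likelihood test, 9 of 17576 genes (0.0512%) had a Benjamini-Hochberg adjusted p under 0.05, and 0 of the 10 astrocyte genes were among them. The smallest unadjusted p of an astrocyte gene was 0.300, their adjusted p ranged from 0.884 (S100b) to 0.993 (Aldh1l1), and 0 of the 10 had an unadjusted p under 0.05. DESeq2 also called 0 of the 10, with a smallest unadjusted p of 0.156. The spread that this test uses comes from WT libraries of different background, so that a p above the threshold does not show that the genes were equal.

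Slc1a2 (ENSMUSG00000005089, chr2:102658659-102790784, plus strand, GRCm38) encodes GLT-1, which carries most of the glutamate taken up in the forebrain. Its row had 25151 raw counts in C57BL6 WT, 20860 in C57BL6-BALB/c WT and 15661 in Cx30-deleted vessels, or 21962, 22531 and 16429 normalized counts. The WT libraries lay close together and the Cx30-deleted library below both. Relative to C57BL6 WT the log2 ratio was -0.42 (95% interval -0.45 to -0.39), and relative to C57BL6-BALB/c WT it was -0.46 (-0.49 to -0.43), with an edgeR adjusted p of 0.906. Slc1a2 supplied 46.7%, 50.4% and 42.4% of the summed normalized counts of the 10 genes. These counts are not corrected for length, and its row of 11595 bases is the longest of the 10. Per kilobase, Gfap had the largest share, at 19.8%, 21.5% and 19.0%. The sum over the 10 was 46984, 44697 and 38733 with Slc1a2 and 25022, 22166 and 22304 without it.

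Against C57BL6 WT, the lower value of Slc1a2 lay in its long transcript row and was not seen in its short coding rows. The long row, Slc1a2-202, has 11595 bases, of which 1716 are coding, and its last exon of 9322 bases (chr2:102781463-102790784) holds 69 coding bases and is otherwise 3′ untranslated. The files also list shorter coding rows that end before most of this exon. Slc1a2-203, with 1957 bases, had 1552, 1437 and 1325 raw counts, or 1355, 1552 and 1390 normalized counts. Its log2 ratio was 0.04 (-0.07 to 0.14) in the first comparison and -0.16 (-0.27 to -0.05) in the second. Slc1a2-201 had ratios of 0.06 (-0.06 to 0.18) and -0.16 (-0.29 to -0.04), and Slc1a2-204 of 0.07 (-0.05 to 0.19) and -0.15 (-0.28 to -0.03). Over all 6 short coding rows, ratios ran from -0.04 to 0.21 against C57BL6 WT, where every interval held 0 and lay above that of the long row. They ran from -0.36 to 0.13 against C57BL6-BALB/c WT, where some intervals overlapped that of the long row. The short rows share most of their bases with each other and with the long row, and are not independent measurements.

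The coding ends of the long and a short row are shown because they are where the encoded transporters part. The long row ends as the form known as GLT-1a and Slc1a2-201 as the form known as GLT-1b. Lower case marks the last 30 coding bases that both rows share, and capitals mark the coding bases of each row from there through the stop codon, 72 bases in Slc1a2-202 and 39 in Slc1a2-201. Both are on the plus strand of chromosome 2, GENCODE M21 on GRCm38, within chr2:102777626-102781534 and chr2:102777626-102777694.
Slc1a2-202: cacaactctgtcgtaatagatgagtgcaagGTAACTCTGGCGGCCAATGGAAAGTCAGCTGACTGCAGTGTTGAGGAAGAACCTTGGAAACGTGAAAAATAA
Slc1a2-201: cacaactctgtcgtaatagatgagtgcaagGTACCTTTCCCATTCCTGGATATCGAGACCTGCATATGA
The capitals are a small part of either row, and most bases that set the long row apart lie downstream of its stop codon, in the last exon. The ratios above thus compare coding exons with a long untranslated end, not GLT-1a with GLT-1b.

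Slc1a2 was also placed against other genes with a long and a short row. Slc1a2 was picked after the values of its rows were seen, so that its place among these genes is a description and not a test. There were 1294 genes with a main row and another mRNA row at least 4 times shorter. Both rows had at least 50 normalized counts in each of the 3 libraries. The log2 ratio of the long row minus that of the short row had a median of -0.04 between Cx30-deleted and C57BL6 WT vessels, with 90% of genes from -0.41 to 0.29. It was -0.46 for Slc1a2, and 3.32% of the genes were as low or lower. Between Cx30-deleted and C57BL6-BALB/c WT vessels the median was 0.05 (90% from -0.37 to 0.48), Slc1a2 was at -0.30, and 7.42% were as low or lower. Between the WT libraries Slc1a2 was at -0.16 and 39.6% were as low or lower. An unstranded library cannot tell Slc1a2 from Gm13872 on the opposite strand, which shares 189 bases with it, but the rows of Gm13872 had only 84 to 86 counts.

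**Figure D3:**
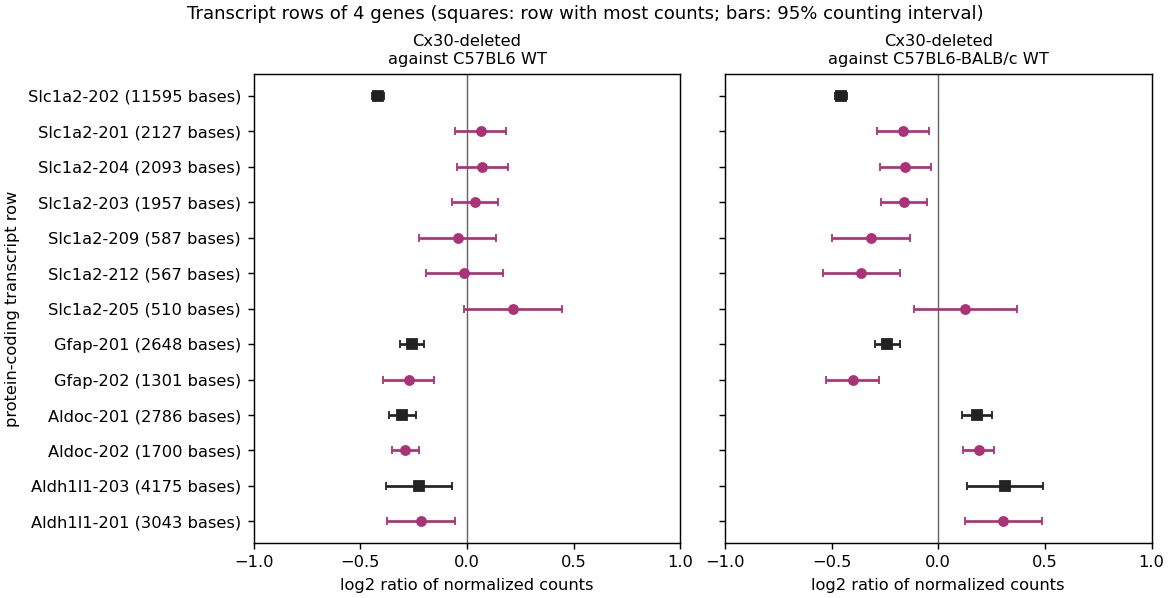
Log2 ratio of normalized counts (horizontal axis) of the protein-coding transcript rows of Slc1a2, Gfap, Aldoc and Aldh1l1 (vertical axis, with row length) in Cx30-deleted vessels against each WT library. Squares mark the row with most counts of a gene, circles its other rows, and bars the 95% counting interval. The long row of Slc1a2 lies at -0.42 against C57BL6 WT and its short coding row Slc1a2-203 at 0.04. In that comparison the rows of Gfap, Aldoc and Aldh1l1 lie beside each other. Against C57BL6-BALB/c WT, Gfap-201 lies at -0.24 and Gfap-202 at -0.40. Other members are not drawn, among them Slc1a3, with ratios of -0.25 and -0.11 in its main row and 0.02 and 0.16 in Slc1a3-208. Fgfr3, also not drawn, has ratios of -0.09 and -0.17 in its main row and -0.08 and -0.32 in Fgfr3-202.

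Row length itself moved with the libraries. Among genes whose row has 8000 bases or more, the median log2 ratio was -0.06 between Cx30-deleted and C57BL6 WT vessels (525 genes) and -0.30 between Cx30-deleted and C57BL6-BALB/c WT vessels (526 genes), and it was 0.25 between the WT libraries (527 genes). Among genes whose row is under 2000 bases, the same medians were 0.03, 0.18 and -0.14. Taken relative to the median of its own length class, Slc1a2 was at -0.36 against C57BL6 WT, -0.16 against C57BL6-BALB/c WT and -0.21 between the WT libraries. The part of row length in the ratios of single genes was not tested.

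**Figure D4:**
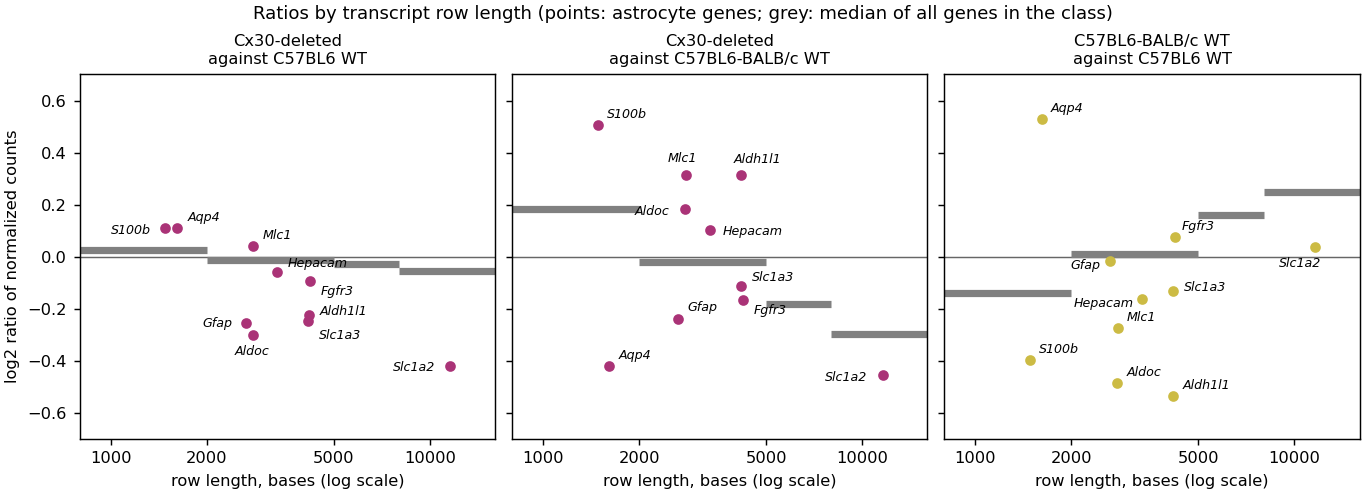
Log2 ratio of normalized counts (vertical axis) against transcript row length in bases (horizontal axis, log scale) for the 10 astrocyte genes (points) in each comparison, with the median of all genes of a length class as a grey bar. The grey bars fall from 0.18 to -0.30 with length in Cx30-deleted against C57BL6-BALB/c WT vessels and rise from -0.14 to 0.25 between the WT libraries. S100b and Aqp4, both with short rows, lie on opposite sides of the bar in these panels.

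Slc1a3 (ENSMUSG00000005360, chr15:8634124-8710764, minus strand) encodes GLAST, the second astrocyte glutamate transporter. It had 6388, 4714 and 4484 raw counts, or 5578 normalized counts in C57BL6 WT, 5092 in C57BL6-BALB/c WT and 4704 in Cx30-deleted vessels. The Cx30-deleted value was the lowest, at a log2 ratio of -0.25 (-0.30 to -0.19) to C57BL6 WT and -0.11 (-0.17 to -0.05) to C57BL6-BALB/c WT, with an edgeR adjusted p of 0.954. The second of these ratios changed sign when libraries were scaled to their total deposited count, so that the order of Slc1a3 in Cx30-deleted and C57BL6-BALB/c WT vessels depends on the scaling. A short coding row, Slc1a3-208 with 286, 211 and 242 raw counts, had ratios of 0.02 (-0.23 to 0.28) and 0.16 (-0.12 to 0.43).

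Gfap (ENSMUSG00000020932, chr11:102887336-102900912, minus strand) is the main intermediate filament protein of astrocytes. Its row Gfap-201 had 6185, 4936 and 4308 raw counts, or 5401 normalized counts in C57BL6 WT, 5331 in C57BL6-BALB/c WT and 4519 in Cx30-deleted vessels. The WT libraries agreed within counting error (log2 ratio -0.02, -0.07 to 0.04) and the Cx30-deleted library was below both. Its log2 ratio to C57BL6 WT was -0.26 (-0.31 to -0.20) and to C57BL6-BALB/c WT -0.24 (-0.30 to -0.18), with an edgeR adjusted p of 0.933. Gfap had the same direction in its other coding row in both comparisons, while the short coding rows of Slc1a2 departed from its long row mainly against C57BL6 WT. Gfap-202 had 1236, 1351 and 1023 normalized counts, with log2 ratios of -0.27 (-0.39 to -0.15) and -0.40 (-0.52 to -0.28). The rows share 1176 bases, so that a read on a shared exon was counted for both.

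Aldh1l1 and Aldoc are metabolic enzymes, the first of folate metabolism and the second of glycolysis. Aldoc (ENSMUSG00000017390, chr11:78322968-78327781, plus strand) had 5172, 2987 and 3490 raw counts, or 4516 normalized counts in C57BL6 WT, 3226 in C57BL6-BALB/c WT and 3661 in Cx30-deleted vessels. Aldh1l1 (ENSMUSG00000030088, chr6:90486427-90600203, plus strand) had 838, 467 and 597 raw counts, or 732, 504 and 626 normalized counts. For both genes C57BL6 WT was highest, C57BL6-BALB/c WT lowest and Cx30-deleted vessels between. The log2 ratio of Aldoc in Cx30-deleted vessels was -0.30 (-0.37 to -0.24) to C57BL6 WT and 0.18 (0.11 to 0.25) to C57BL6-BALB/c WT. That of Aldh1l1 was -0.22 (-0.38 to -0.07) and 0.31 (0.14 to 0.49). Between the WT libraries the ratio was -0.49 for Aldoc and -0.54 for Aldh1l1, larger in size than either ratio of Cx30-deleted vessels. The edgeR adjusted p was 0.985 and 0.993. Their other coding rows had nearly the same ratios. Gm15756 on the opposite strand shares 438 bases with Aldh1l1 in GENCODE.

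S100b and Fgfr3 take part in signalling, S100b as a calcium-binding protein that oligodendrocytes also make and Fgfr3 as a receptor of fibroblast growth factors. S100b (ENSMUSG00000033208, chr10:76253853-76261159, plus strand) had 1334, 819 and 1198 raw counts, or 1165, 885 and 1257 normalized counts in C57BL6 WT, C57BL6-BALB/c WT and Cx30-deleted vessels. It was highest in Cx30-deleted vessels, with log2 ratios of 0.11 (-0.004 to 0.22) and 0.51 (0.38 to 0.64), and lower in C57BL6-BALB/c WT than in C57BL6 WT (-0.40, -0.52 to -0.27). Relative to other genes with rows under 2000 bases, its ratio to C57BL6-BALB/c WT was 0.32. Fgfr3 (ENSMUSG00000054252, chr5:33721674-33737068, plus strand) had 2625, 2233 and 2049 raw counts, or 2292, 2412 and 2150 normalized counts. The 3 values of this row lay close, with log2 ratios of -0.09 (-0.18 to -0.01) and -0.17 (-0.25 to -0.08). A shorter coding row, Fgfr3-202 with 1322, 1259 and 1042 raw counts, had ratios of -0.08 (-0.20 to 0.04) and -0.32 (-0.43 to -0.20). Between the WT libraries Fgfr3-202 was at 0.24 (0.12 to 0.35), while the main row was at 0.07 (-0.01 to 0.16). The edgeR adjusted p was 0.884 for S100b and 0.967 for Fgfr3. G630022F23Rik on the opposite strand shares 411 bases with Fgfr3 in GENCODE.

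Of the endfoot membrane genes, Aqp4 was highest in C57BL6-BALB/c WT, while Mlc1 and Hepacam were lowest there. Aqp4 (ENSMUSG00000024411, chr18:15389496-15410982, minus strand) forms the water channel of the endfoot and had 360, 420 and 323 raw counts, or 314, 454 and 339 normalized counts in C57BL6 WT, C57BL6-BALB/c WT and Cx30-deleted vessels. The C57BL6-BALB/c WT library was the high one and the others lay within counting error. The log2 ratio was 0.11 (-0.11 to 0.33) against C57BL6 WT, -0.42 (-0.63 to -0.21) against C57BL6-BALB/c WT and 0.53 (0.32 to 0.74) between the WT libraries, with an edgeR adjusted p of 0.951. Aqp4 had the fewest counts of the 10 genes. Its row in the files has 1614 bases, while the same transcript has 5054 in GENCODE M21, so that reads on the remaining bases were not counted and its level per kilobase, at 195, 281 and 210, rests on part of the transcript. Relative to other genes with rows under 2000 bases, its ratios were 0.08, -0.60 and 0.67 in the 3 comparisons. These depend on the class, which follows the shortened row. The medians of that class were 0.03, 0.18 and -0.14. Those of rows from 5000 to under 8000 bases, where the full transcript would fall, were -0.03, -0.18 and 0.16.

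Mlc1 and Hepacam encode membrane proteins that bind each other at contacts between endfeet. Mlc1 (ENSMUSG00000035805, chr15:88955884-88979007, minus strand) had 3862, 2582 and 3303 raw counts, or 3372, 2789 and 3465 normalized counts. Cx30-deleted and C57BL6 WT vessels agreed within counting error (log2 ratio 0.04, -0.03 to 0.11), and both were above C57BL6-BALB/c WT, from which Cx30-deleted vessels differed by 0.31 (0.24 to 0.39). Hepacam (ENSMUSG00000046240, chr9:37367351-37386575, plus strand) had 1891, 1364 and 1509 raw counts, or 1651, 1473 and 1583 normalized counts. It was the gene with the smallest range over the libraries, 1.12-fold, and its intervals held 0 against both WT libraries, at -0.06 (-0.16 to 0.04) and 0.10 (-0.003 to 0.21). The edgeR adjusted p was 0.948 for Mlc1 and 0.991 for Hepacam.

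A list of 40 other astrocyte genes gave a wider view of the same cells. Over all genes tested, 50.7% were lower in the first, 50.3% higher in the second and 49.98% lower in the third of the comparisons that follow. All 40 passed the minimum of 50 normalized counts, and with counts scaled on all genes 0 differed by 2-fold in any of the 3 comparisons. Against C57BL6 WT, 14 were higher and 26 lower in Cx30-deleted vessels, with a median log2 ratio of -0.11, from Slc7a10, a neutral amino acid transporter, at -0.62 to the metallothionein Mt2 at 0.40. Against C57BL6-BALB/c WT, 27 were higher and 13 lower, with a median of 0.12, from Dio2, which activates thyroid hormone, at -0.72 to Mt1 at 0.68. Between the WT libraries, 34 of the 40 were lower in C57BL6-BALB/c WT, with a median of -0.26, from Ppp1r3c at -0.58 to Hapln1 at 0.31. These directions depend on the scaling. Scaled on endothelial genes, 35 of the 40 were lower in Cx30-deleted than in C57BL6 WT vessels (median -0.33). All 40 were then lower than in C57BL6-BALB/c WT (-0.76), and all 40 were higher in C57BL6-BALB/c WT than in C57BL6 WT (0.40). Gja1, which encodes Cx43, the other astrocyte connexin, had 4487, 4619 and 4760 normalized counts and log2 ratios of 0.09 and 0.04.

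With counts scaled on all genes, genes that handle glutamate, potassium and water beside these transporters showed no 2-fold difference against C57BL6 WT. Of all genes tested, 2.68% did. Of 20 listed, 19 passed the minimum, and 10 were higher and 9 lower in Cx30-deleted than in C57BL6 WT vessels, with a median log2 ratio of 0.03. Kcnj10, the potassium channel of endfeet, was highest at 0.36, with 3252 normalized counts in C57BL6 WT, 3399 in C57BL6-BALB/c WT and 4165 in Cx30-deleted vessels. The water channel Aqp1, which choroid plexus makes in quantity, was lowest at -0.86. Against C57BL6-BALB/c WT the median was 0.28. Here 8.69% of all genes tested differed by 2-fold either way, and 2 of the list were at least 2-fold higher. They were the glutamine transporter Slc38a5 at 1.23 and the neutral amino acid transporter Slc1a5 at 1.17. The endothelial list had a median of 0.87 in this comparison, with 12 of 12 higher, and its part in these values was not tested. Between the WT libraries, where 3.43% of all genes tested differed by 2-fold, the median was -0.25. Aqp1, the 1 gene at least 2-fold lower, was lowest at -1.45. Scaled on endothelial genes, 3 were higher and 16 lower in Cx30-deleted vessels against either WT library. The medians were then -0.20 against C57BL6 WT, -0.60 against C57BL6-BALB/c WT and 0.41 between the WT libraries.

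Genes known to rise in reactive astrocytes were mostly higher in Cx30-deleted vessels with counts scaled on all genes, and several of them are also made by endothelial or blood cells. Scaled on endothelial genes, their median log2 ratio was 0.03 against C57BL6 WT, with 12 higher and 8 lower. It was then -0.49 against C57BL6-BALB/c WT, with 6 higher and 14 lower. Between the WT libraries it was 0.44, with 15 higher and 5 lower in C57BL6-BALB/c WT. Of 22 listed, 21 were found in the files and 20 passed the minimum. Against C57BL6 WT, 19 were higher and 1 lower, with a median log2 ratio of 0.25, where 49.3% of all genes tested were higher. Serpina3n, a protease inhibitor, was highest at 0.75, with 374, 340 and 630 normalized counts in C57BL6 WT, C57BL6-BALB/c WT and Cx30-deleted vessels, and Steap4 was lowest at -1.49. Against C57BL6-BALB/c WT, 18 were higher and 2 lower, with a median of 0.39, where 50.3% of all genes tested were higher. There Lcn2, an iron-binding secreted protein that endothelial cells also make, was highest at 2.96, Cp was at 1.85, Osmr at 1.17 and Emp1 lowest at -0.27. Between the WT libraries, with counts scaled on all genes, 7 were higher and 13 lower in C57BL6-BALB/c WT, with a median of -0.22. Over all genes tested 49.98% were lower. Of the list, 3 were at least 2-fold lower, where 3.43% of all genes tested differed by 2-fold either way. Lcn2 had a log2 ratio of -2.64 in C57BL6-BALB/c WT against C57BL6 WT, larger in size than its 0.32 between Cx30-deleted and C57BL6 WT vessels, and Timp1 was the highest gene between the WT libraries at 0.69. In Cx30-deleted vessels against C57BL6 WT and C57BL6-BALB/c WT, the endothelial list had medians of 0.22 and 0.87 and the blood cell list of 1.28 and 2.05. Their part in the reactive list was not tested. Gfap itself, the gene most used to mark reactive astrocytes, had ratios of -0.26 and -0.24. In the edgeR test 0 of these genes were called, and the lowest adjusted p was that of Serpina3n at 0.369.

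Glycolysis genes, beside Aldoc, had medians near 0 with counts scaled on all genes. Of the 16 that passed the minimum, 3 were higher and 13 lower than in C57BL6 WT, where 50.7% of all genes tested were lower (median log2 ratio -0.07, from Gapdh at -0.52 to Pfkl at 0.09). Against C57BL6-BALB/c WT, 5 were higher and 11 lower, where 49.7% of all genes tested were lower (median -0.08, from Gapdh at -1.14 to Ldha at 0.65). Here 2 were at least 2-fold lower, Gapdh and Eno1, where 8.69% of all genes tested differed by 2-fold either way. Between the WT libraries the median was 0.05, from Ldha at -0.72 to Gpi1 at 0.78. Scaled on endothelial genes, all 16 were lower in Cx30-deleted vessels against C57BL6 WT (median -0.29) and against C57BL6-BALB/c WT (-0.96). The median between the WT libraries was then 0.71. Gapdh and Eno1 have near-identical copies in the genome, and since only reads with a single match were kept, their counts are uncertain.

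The FGF pathway around Fgfr3 was examined through 16 genes, of which 14 passed. Against C57BL6 WT, 4 were higher and 10 lower in Cx30-deleted vessels (50.7% of all genes lower), with a median log2 ratio of -0.13, from the transcription factor Etv4 at -0.78 to the ligand Fgf1 at 0.35. Against C57BL6-BALB/c WT, 4 were higher and 10 lower (49.7% of all genes lower), with a median of -0.31, from Etv5 at -0.76 to the pathway inhibitor Spry1, the 1 gene at least 2-fold higher, with 926 normalized counts against 431. In this comparison 8.69% of all genes tested differed by 2-fold either way. Between the WT libraries the median was 0.20, from Spry1 at -1.23 to Spred2 at 0.58. These values hold for counts scaled on all genes. Scaled on endothelial genes, 13 of the 14 were lower in Cx30-deleted vessels against C57BL6 WT (median -0.35) and against C57BL6-BALB/c WT (-1.19). The median between the WT libraries was then 0.86. In C57BL6 WT, C57BL6-BALB/c WT and Cx30-deleted vessels, Etv4 had 396, 347 and 231 normalized counts and Etv5 had 408, 473 and 279. Both were lowest in Cx30-deleted vessels, with edgeR adjusted p of 0.565 and 0.577. Spry1, with 1008, 431 and 926 normalized counts, lay between the WT libraries there. Whether FGF signalling differed between the libraries was not tested.

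Markers of the cells that make up or accompany the vessels also moved between the libraries, and the median of the blood cell list moved most in each comparison. The 12 endothelial genes summed to between 103722 and 203940 normalized counts, lowest in C57BL6-BALB/c WT and highest in Cx30-deleted vessels. Their median log2 ratio was 0.22 against C57BL6 WT and 0.87 against C57BL6-BALB/c WT, with 12 of 12 higher in each, and -0.70 between the WT libraries. Neuronal markers had medians of -0.45 and -0.79 against the WT libraries, oligodendrocyte markers -0.52 and -0.35, mural markers 0.18 and 0.19, fibroblast markers 0.22 and 0.53, microglia and macrophage markers -0.11 and 0.42, and choroid plexus and ependymal markers 0.05 and 0.60. Blood cell markers had medians of 1.28 and 2.05. No deletion is involved between the WT libraries, where the medians were 0.23 for neuronal, -0.34 for oligodendrocyte, -0.03 for mural, -0.31 for fibroblast, -0.45 for microglia and macrophage, -0.50 for choroid plexus and ependymal and -0.85 for blood cell markers. The sums of the neuronal list ran from 29971 to 51553 and those of the oligodendrocyte list from 50382 to 61217 normalized counts. Those of the choroid plexus and ependymal list ran from 61024 to 148822. The part of these lists in the ratios of the astrocyte genes was not tested.

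**Figure D5:**
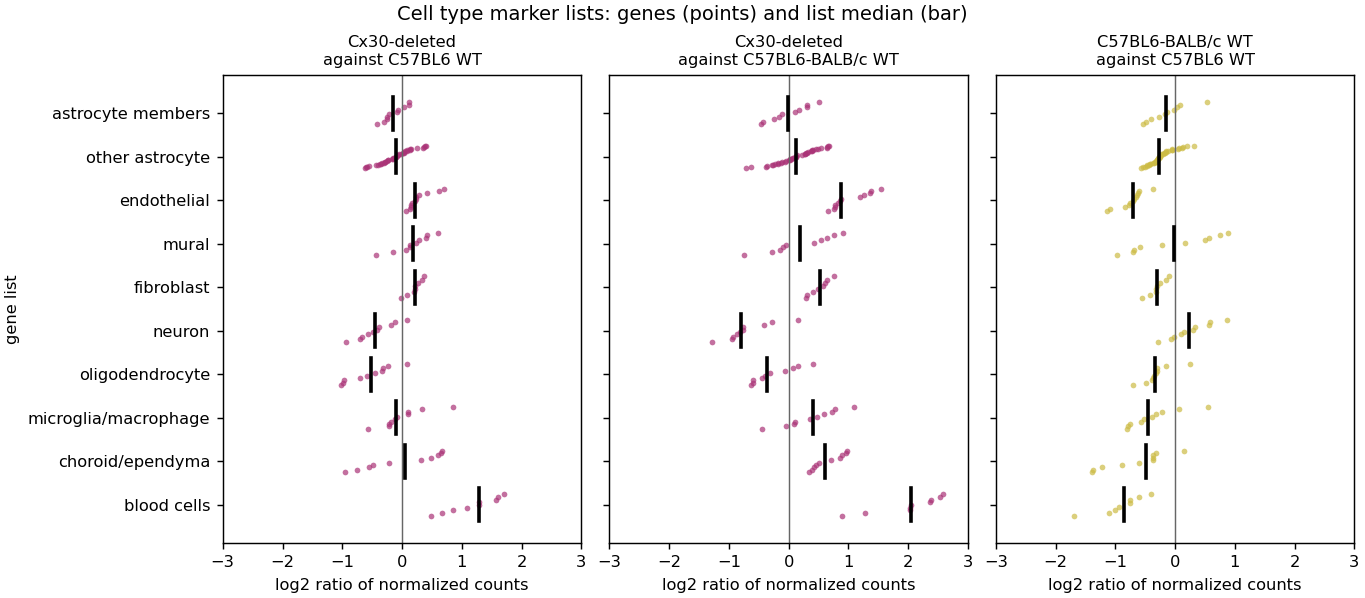
Log2 ratio of normalized counts (horizontal axis) of the genes of each marker list (points) with the list median (bar), in the 3 comparisons. Only genes with at least 50 normalized counts in 1 of the libraries compared are drawn. The medians of the astrocyte members lie at -0.16, -0.01 and -0.15, those of the endothelial list at 0.22, 0.87 and -0.70, and the directions are those of counts scaled on all genes.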

How the data were processed

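Strand-nonspecific polyA libraries from isolated brain vessels were sequenced as short single reads. The authors aligned the reads with Bowtie, kept reads with a single match, and deposited raw counts of alignments over the exons of 82813 Ensembl transcripts. Where transcripts overlap, a read adds to the count of each. The files also hold, as deposited, every count as a fraction of a library total, which was not used for any result. The submitters' processing notes name mm10 and CASAVA 1.8.2, but the positions in the files do not match GRCm38, so coordinates and sequences were taken from GENCODE M21 on GRCm38 by transcript identifier (69375 of the rows, 83.8%).

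Each gene took its row with the largest total count. Normalized counts used median-of-ratios size factors. A gene entered a comparison with at least 50 normalized counts in 1 of its libraries, and a 2-fold ratio was the threshold. Intervals of 95% are exact binomial (Clopper-Pearson, scipy 1.17.1) and cover counting error only. Reads carry no molecular identifiers. For the test, Cx30-deleted was compared with both WT libraries by edgeR 4.0.16 (filterByExpr, TMM, quasi-likelihood, Benjamini-Hochberg), with DESeq2 1.42.0 as an alternative. The scripts were tested on simulated data. The members and lists were chosen with earlier results of these data known. Named genes are the members, Gjb6, and the highest and lowest gene of each astrocyte or pathway list in each comparison. For lists of other cell types, counts and medians only are given. An extreme gene of the glutamate and potassium list is not reported here. Gja1, Slc1a5, Cp, Osmr, Eno1 and the rows of Slc1a2 were added after their values were seen. Other scalings, row choices, thresholds and a pseudocount of 1 were tried.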

Additional observations from a re-analysis of the deposited data

How the results depend on the processing

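No astrocyte gene reached 2-fold in any comparison under TMM, upper-quartile, total-count or pairwise size factors, summed or longest rows, a pseudocount of 1, other count minimums, or thresholds of 1.5-fold and 4-fold. Scaling on the 12 endothelial genes, which shifts every log2 ratio by -0.22, -0.88 and 0.66 in the 3 comparisons, moved the median of the astrocyte genes to -0.38 against C57BL6 WT, -0.88 against C57BL6-BALB/c WT and 0.51 between the WT libraries. It put 4 genes past 2-fold against C57BL6-BALB/c WT and 1 between the WT libraries, placed 10 of 10 below both WT libraries in Cx30-deleted vessels, and changed the sign of 15 of 30 ratios. Total-count scaling, a shift of 0.13 against C57BL6-BALB/c WT and -0.12 between the WT libraries, moved those medians to 0.12 and -0.27. It changed 3 signs (Slc1a3 against C57BL6-BALB/c WT, Slc1a2 and Fgfr3 between the WT libraries) and left 3 genes below both WT libraries. Added after seeing the data, Slc1a2 by its row Slc1a2-203 changed 1 sign and also left 3 genes, and centring by row length changed the sign of Slc1a2 between the WT libraries. The test across genes called 9 genes by edgeR with TMM, 35 with relative log expression factors, 135 of 22471 without a filter and 7 by DESeq2, with 0 of the 10 astrocyte genes in each. No paired analysis was possible because each group had 1 library, and no library could be left out of a comparison.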
